A study of Homo sapiens with 6 samples.

Results

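The genes described here are 10 members of the SLITRK family and the SLIT-ROBO system: SLITRK2, SLITRK3, SLITRK4, SLITRK5, SLITRK6, SLIT1, SLIT2, SLIT3, ROBO1 and ROBO2. They were taken as every probe set that the platform annotation gave to one of these symbols alone, dim probe sets included, which gave 21 probe sets of 54613 and 10 genes of 19775. The genes were chosen by family and not by their own levels, but the family was selected on the measured difference of SLITRK6, which had differed between the sorts in an earlier analysis of these arrays. The SLITRK6 values in that comparison are therefore a description and carry no test. The study compared CD44-positive with CD44-negative cells sorted from COLO-320DM, 1 human colorectal cancer line known for MYC amplification, on 3 arrays each numbered 01, 02 and 03. All cells came from untreated cultures grown to near confluence, and none of these 6 arrays was labelled with a tankyrase inhibitor, although the series concerns those compounds and the receptor kinase KIT. Whether replicates were separate cultures or sorts was not stated in the labels, so every p-value refers to the variation among these 6 arrays, which could be technical.

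SLITRK proteins are single-pass membrane proteins with leucine-rich repeats outside the cell. On neurons they bind receptor tyrosine phosphatases such as PTPRD and PTPRS across the synapse and help to form it. SLIT proteins are large secreted ligands that bind the immunoglobulin-domain receptors of the ROBO family and repel growing axons, and both also act on migrating cells and vessels outside the nervous system. SLIT2 is among the genes often silenced by promoter methylation in colorectal cancers.

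Each difference is the CD44-positive mean less the CD44-negative mean in log2 units, and each level is the log2 intensity on 1 probe set, which cannot be set against the level of another probe set. The brightest probe set on average stood for its gene. A gene was called dim, and left out of the tests across genes, when that mean lay under 5.12, the 30th percentile of all genes. By this limit SLITRK5, SLITRK6, SLIT1, SLIT2, SLIT3 and ROBO1 were tested and SLITRK2, SLITRK3, SLITRK4 and ROBO2 were dim, and 10 of the 21 probe sets lay above it. The sort marker CD44 stood at 7.86, 8.12 and 7.11 in CD44-positive arrays 01, 02 and 03, against 5.41, 5.29 and 4.99 in CD44-negative arrays, a difference of 2.47 ± 0.24 (SE), with limma's adjusted p at 0.106 in the fit without pairing and 0.00175 with the replicate number as a block. By exact permutation (two-sided) p was 0.1, the smallest that 3 arrays against 3 can give. On the brightest CD44 probe set without an _s_at or _x_at suffix the difference was 5.12 (limma adjusted p = 0.00222). Of 7 markers of the line and of colorectal epithelium, MYC, KRT8, KRT18, CDX2 and VIL1 lay above the dim limit, while EPCAM (4.40 against 4.87) and CDH1 (4.07 against 4.17) were dim in both sorts.

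The start regions of the 4 members on which the results below turn are shown first, so that the genes can be seen as sequence. Each run holds 250 bases before and 50 after the annotated gene start, read 5′ to 3′ on the strand of the gene, from RefSeq on GRCh38.p14, where all 10 members were found. Capitals mark matches on either strand to 5 short motifs. The core of a TATA box was searched as TATAA. The CCAAT box was searched by the letters of its name. An E-box that MYC can bind was searched as CACGTG. The GC box, bound by SP1-type factors, was searched as GGGCGG. The core of the site for TCF and LEF factors of the Wnt pathway was searched as CTTTGA. No 2 matches overlapped in the runs shown. The runs are SLITRK6 at chr13:85799370-85799669 (minus strand), SLITRK5 at chr13:87671121-87671420 (plus strand), SLIT2 at chr4:20251655-20251954 (plus strand) and ROBO1 at chr3:79767949-79768248 (minus strand).
SLITRK6: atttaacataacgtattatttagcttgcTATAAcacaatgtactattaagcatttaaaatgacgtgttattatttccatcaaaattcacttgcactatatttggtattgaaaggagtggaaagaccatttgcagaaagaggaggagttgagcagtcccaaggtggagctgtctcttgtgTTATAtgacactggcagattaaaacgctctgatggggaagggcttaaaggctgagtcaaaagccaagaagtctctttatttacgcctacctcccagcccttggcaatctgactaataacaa
SLITRK5: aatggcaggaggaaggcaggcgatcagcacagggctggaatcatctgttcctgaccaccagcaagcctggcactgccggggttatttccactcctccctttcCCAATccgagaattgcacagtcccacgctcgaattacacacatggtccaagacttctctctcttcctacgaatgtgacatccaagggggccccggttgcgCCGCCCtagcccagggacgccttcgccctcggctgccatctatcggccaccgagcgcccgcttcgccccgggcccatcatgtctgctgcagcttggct
SLIT2: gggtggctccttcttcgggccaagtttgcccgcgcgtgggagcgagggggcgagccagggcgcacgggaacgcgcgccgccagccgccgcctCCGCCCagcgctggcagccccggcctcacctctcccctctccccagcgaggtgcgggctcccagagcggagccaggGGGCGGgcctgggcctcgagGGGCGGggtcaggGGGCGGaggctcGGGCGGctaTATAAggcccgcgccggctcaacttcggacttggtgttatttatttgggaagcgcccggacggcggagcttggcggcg
ROBO1: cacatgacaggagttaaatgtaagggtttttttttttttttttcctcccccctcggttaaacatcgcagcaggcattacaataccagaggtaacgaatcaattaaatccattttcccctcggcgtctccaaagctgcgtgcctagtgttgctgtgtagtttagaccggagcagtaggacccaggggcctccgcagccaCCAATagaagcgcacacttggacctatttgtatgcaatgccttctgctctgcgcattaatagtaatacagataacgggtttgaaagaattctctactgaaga

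These regions differed widely in composition. The SLITRK6 region was 38.7% G and C, held 4 CpG dinucleotides and matched the TATA box core at 2 places, beginning 222 and 71 bases before the gene start. The SLIT2 region was 74.3% G and C and held 36 CpG, more than 87.3% of the promoters in the same table, with 5 GC boxes and 1 match to the TATA box core. SLITRK5 held 18 CpG, 1 CCAAT match and 1 GC box, and ROBO1 held 11 CpG and 1 CCAAT match. Among 35116 promoters of the same length, 20.4% held the TATA box core, 34.6% the CCAAT box, 7.26% the E-box, 45% the GC box and 12.9% the TCF and LEF core, and the median CpG count was 14. None of the 4 matched the E-box or the TCF and LEF core, which says only that these letters are not in these windows.

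SLITRK6 was lower in the CD44-positive cells. In humans, loss of SLITRK6 causes deafness with myopia, and the protein has been used as a surface target in urothelial cancer. On the main probe set it stood at 7.47, 7.48 and 8.42 in CD44-positive arrays 01, 02 and 03, against 9.24, 8.61 and 9.44 in CD44-negative arrays. All 3 CD44-positive arrays lay under all 3 CD44-negative arrays, though CD44-positive array 03 came within 0.194 of CD44-negative array 02. The means were 7.79 ± 0.54 and 9.10 ± 0.43 (SD, n = 3 each), and the difference of -1.31 amounts to a level 2.48-fold lower.

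The other 2 probe sets of SLITRK6 gave the same picture with larger differences. The second probe set by level read 6.91, 6.62 and 7.81 in CD44-positive arrays, against 8.73, 8.03 and 9.11 in CD44-negative arrays, a difference of -1.51. The remaining one read 5.62, 5.43 and 6.59 in CD44-positive arrays, against 7.60, 6.96 and 8.28 in CD44-negative arrays, a difference of -1.73 or a level 3.32-fold lower. Neither probe set overlapped between the sorts, and all 18 values of the gene lay above the dim limit. The pairs of same-numbered arrays differed by -1.77, -1.13 and -1.03 on the main probe set, by -1.82, -1.41 and -1.30 on the next and by -1.98, -1.53 and -1.68 on the dimmest. By its suffix the main probe set may match several transcripts, and the other 2 bear no such suffix.

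The spread within each sort was wide enough that the comparison without pairing made no call. Limma gave SLITRK6 a standard error of 0.29, a 95% interval from -1.99 to -0.63 and an adjusted p of 1.00, and 0 of 13842 genes passed (0.0%), with 273 (1.97%) at an unadjusted p under 0.05. With the replicate number as a block the standard error was 0.14, the interval ran from -1.63 to -0.99 and the adjusted p was 0.0445, the value that had drawn attention to the family. The blocked fit called 8 genes (0.0578%), 4 of them lower (0.0289%). Over all probe sets, dim ones included, the unblocked fit called 5 (0.00916%). The blocked fit called 28 (0.0513%), of which 7 were lower (0.0128%), all 3 of SLITRK6 among them. These 3 read 1 gene on the arrays that led to its choice, so their calls add no separate support. The blocked gene call was lost with quantile normalization (adjusted p = 0.0587) and with no filter on dim genes (0.0599). All 3 CD44-positive arrays lay under all 3 CD44-negative arrays in 360 of 13842 genes (2.6%) and in 3.32% of all probe sets, and 14.8% of genes were lower in 3 of 3 pairs.

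**Figure D1:**
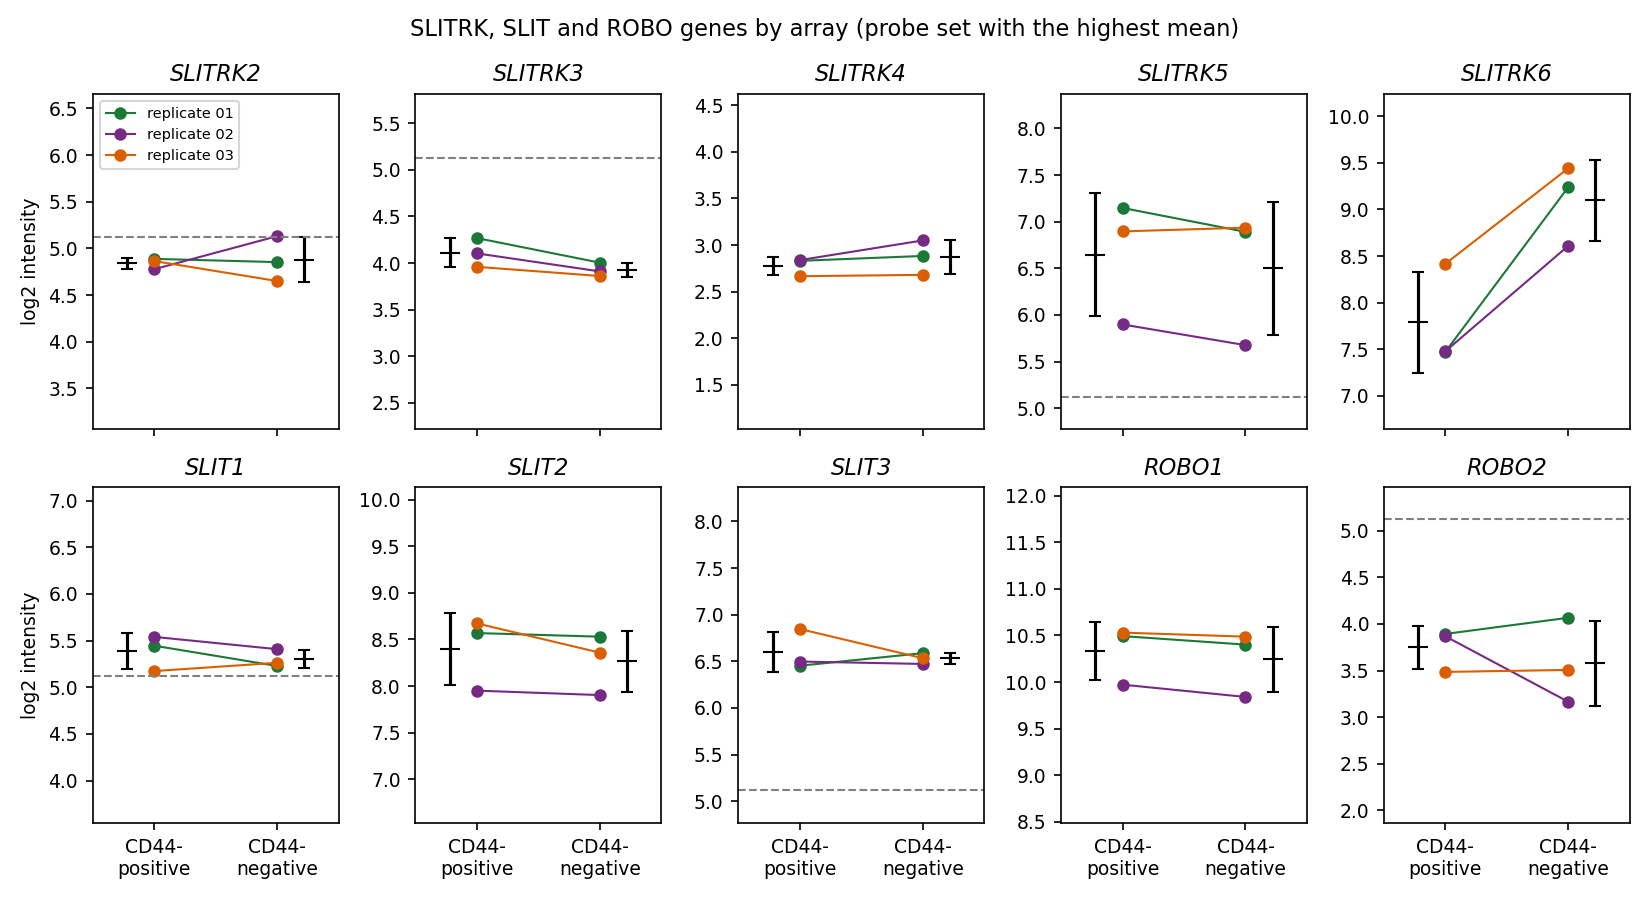
Log2 intensity of each of the 10 genes on its probe set with the highest mean, with CD44-positive arrays on the left and CD44-negative arrays on the right of each panel. Lines join arrays of the same replicate number, black bars are the mean and SD of 3 arrays, the dashed line is the dim limit of 5.12, and every panel spans the same range on the log2 scale. SLITRK6 is the panel in which the sorts do not overlap, and in SLITRK5, SLIT2 and ROBO1 both arrays numbered 02 lie under the other 4.

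The other SLITRK genes differed less between the sorts than SLITRK6. SLITRK5, which in mice has been tied to corticostriatal circuits and compulsive grooming, stood at 7.15, 5.90 and 6.90 in CD44-positive arrays, against 6.89, 5.68 and 6.94 in CD44-negative arrays. The sorts overlapped, and the difference of 0.15 had a 95% interval from -0.79 to 1.08 (limma adjusted p = 1.00) and, with the block, from -0.046 to 0.34 (adjusted p = 0.773). Its second probe set was dim, at 3.11 ± 0.07 in CD44-positive arrays, against 3.22 ± 0.28 in CD44-negative arrays (SD, n = 3 each).

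SLITRK2, SLITRK3 and SLITRK4 lay at dim levels in both sorts. SLITRK2, on the X chromosome, read 4.89, 4.78 and 4.86 in CD44-positive arrays, against 4.85, 5.13 and 4.65 in CD44-negative arrays, with 1 CD44-negative array just above the limit. SLITRK3, which in mice acts at inhibitory synapses, read 4.27, 4.10 and 3.96 in CD44-positive arrays, against 4.004, 3.91 and 3.86 in CD44-negative arrays. It was the only one of the 4 dim members that was higher in 3 of 3 pairs, by 0.26, 0.19 and 0.098, and the groups still overlapped. Both probe sets of SLITRK4 lay between 2.67 and 3.05 on all 6 arrays, with differences of -0.093 and -0.035. The main one was lower in 3 of 3 pairs, by -0.052, -0.21 and -0.015, the direction of SLITRK6 but far smaller. At such levels RMA can compress differences, so these values bound little.

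The SLIT ligands differed little between the sorts. SLIT2 read 8.57, 7.95 and 8.67 in CD44-positive arrays, against 8.53, 7.90 and 8.36 in CD44-negative arrays on its main probe set, a difference of 0.13 with a 95% interval from -0.38 to 0.64. Its other 2 probe sets, also above the limit, differed by -0.11 and 0.12, so the 3 did not share a sign. SLIT1 read 5.45, 5.54 and 5.17 in CD44-positive arrays, against 5.23, 5.41 and 5.26 in CD44-negative arrays, just above the limit, a difference of 0.087 (interval -0.18 to 0.36). SLIT3 read 6.45, 6.498 and 6.85 in CD44-positive arrays, against 6.59, 6.47 and 6.53 in CD44-negative arrays, a difference of 0.068 (interval -0.21 to 0.34). For all 3 ligands limma's adjusted p was 1.00 in the unblocked fit and 0.789 to 0.937 in the blocked one.

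Of the receptors, ROBO1 was well above the dim limit and ROBO2 under it. ROBO1 binds SLITs through its first immunoglobulin domains. It read 10.49, 9.97 and 10.53 in CD44-positive arrays, against 10.40, 9.84 and 10.49 in CD44-negative arrays, a difference of 0.089 with a 95% interval from -0.39 to 0.57 (limma adjusted p = 1.00) and, with the block, from -0.069 to 0.25 (0.850). The 3 probe sets of ROBO2 were dim on every array, from 2.70 to 4.07, and differed by 0.17, -0.026 and -0.16.

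Outside SLITRK6 every difference was smaller than those of SLITRK6. The 18 probe sets of the other 9 members differed by -0.16 to 0.19, and all of them overlapped between the sorts, while 6.73% of all probe sets did not. The median difference of the 6 tested members, SLITRK6 included, was 0.088, beside -0.0025 over all tested genes. On their main probe sets the other 5 tested members were all higher in CD44-positive cells, by 0.068 to 0.15. The median absolute difference over all tested genes was 0.060. The exact permutation p of the other 9 members on their main probe sets ran from 0.2 to 0.9 (two-sided). The intervals leave room for differences of up to 1.08 for SLITRK5 and 0.64 for SLIT2 in the fit without the block, so that the missing calls do not show equal levels.

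**Figure D2:**
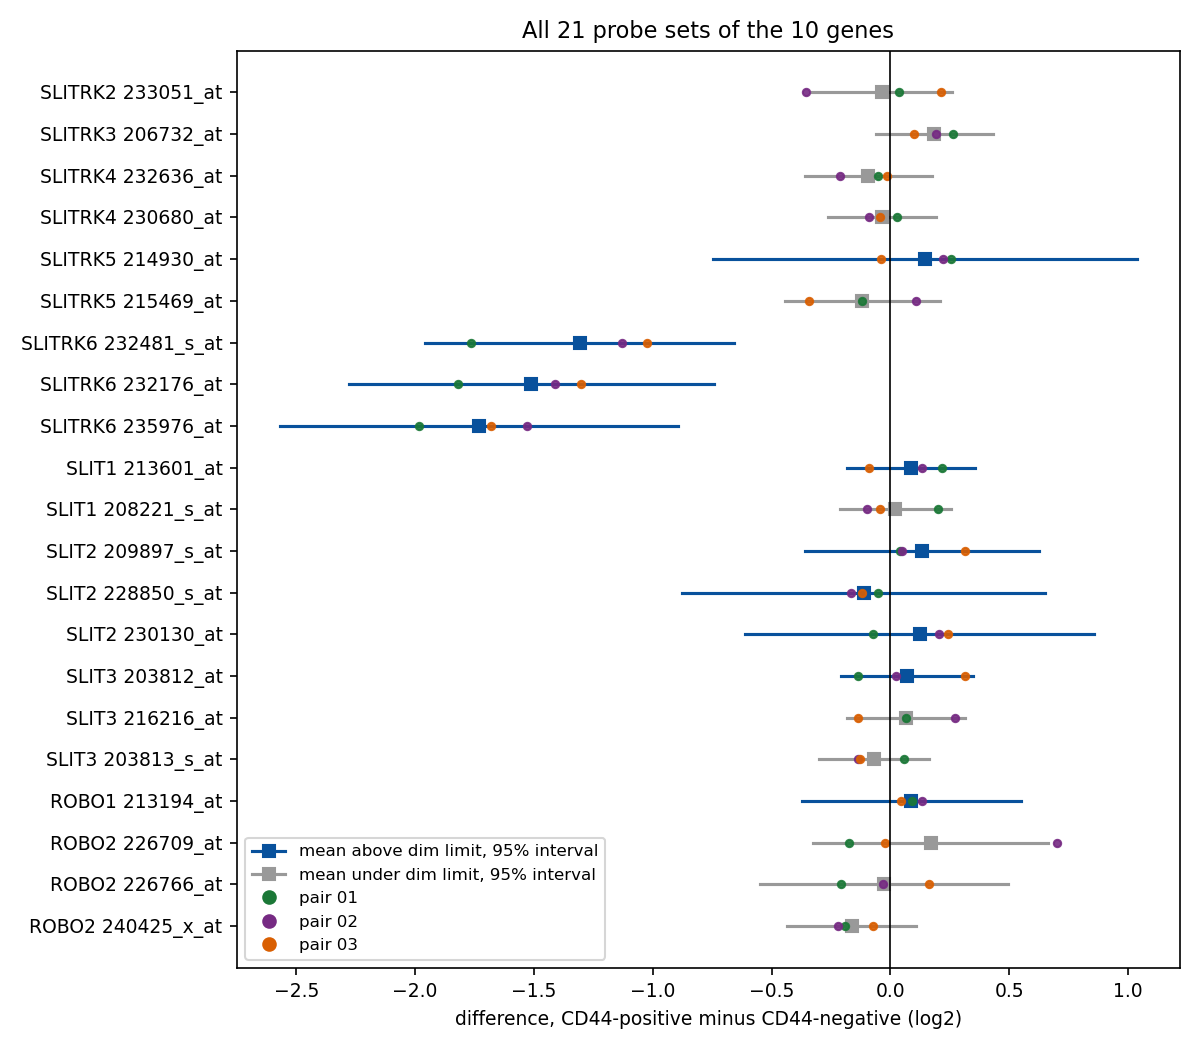
Difference between CD44-positive and CD44-negative arrays on the log2 scale for all 21 probe sets, with the 95% interval of the limma fit over all probe sets without the block (squares and lines) and the 3 pair differences (dots). Probe sets with a mean above the dim limit are blue and those under it grey. The 3 probe sets of SLITRK6 lie at -1.31, -1.51 and -1.73, and the other 18 lie between -0.16 and 0.19.

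A second pattern ran along the replicate numbers. The choice of the family had used the blocked fit of SLITRK6, which shares its residual spread with the test of the numbers, so the number values of SLITRK6 are a description, and the test is given for the other members. SLITRK5, SLIT2 and ROBO1 were lowest on array 02 in both sorts, and SLITRK6 was highest on array 03 in both. In limma's moderated F test of the replicate number, beside the sort, 1430 of 13842 genes passed (10.3%). Of the other 5 tested members 3 passed: SLITRK5 (F = 92.3, adjusted p = 0.00458), ROBO1 (F = 32.3, adjusted p = 0.0135) and SLIT2 (F = 24.8, adjusted p = 0.0198). SLIT1 (F = 3.31, adjusted p = 0.222) and SLIT3 (F = 1.78, adjusted p = 0.384) did not. SLITRK6 had an F of 14.2, and the median F of all genes was 2.59. The call of ROBO1 was lost without CD44-negative array 02 (adjusted p = 0.0756) and that of SLIT2 without CD44-positive array 02 (adjusted p = 0.0807). The labels did not say what arrays of one number shared, so what lies behind the numbers was not tested.

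The shift at number 02 was alike in the 2 sorts. Array 02 of SLITRK5 lay under the mean of arrays 01 and 03 with a difference of -1.12 in CD44-positive cells, against -1.24 in CD44-negative cells, and neither array 02 overlapped the other arrays. The main probe set of SLIT2 gave -0.67 in CD44-positive cells, against -0.54 in CD44-negative cells. Its other probe sets gave -1.04 and -0.90 in CD44-positive cells, against -0.96 and -1.02 in CD44-negative cells, so that all 3 were lower on array 02. ROBO1 gave -0.54 in CD44-positive cells, against -0.60 in CD44-negative cells. Of all tested genes, 18.4% were lowest and 15.7% highest on array 02 in both sorts, and 3.81% were both lowest there and past the test. Over the 6 arrays SLITRK5 followed ROBO1 with a Pearson r of 0.98 and SLIT2 with 0.94, and SLIT2 followed ROBO1 with 0.95. These correlations describe 6 arrays that share sorts and numbers, and they carry no test. Averaged over the 2 sorts, SLITRK6 levels were 8.36 at number 01, 8.04 at 02 and 8.93 at 03, and its r with SLITRK5, SLIT2 and ROBO1 was 0.21, 0.17 and 0.25.

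The fibroblast marker COL3A1, a fibrillar collagen, was also lowest at number 02. The summed intensity of 10 such markers was 3726, 1536 and 3581 in CD44-positive arrays 01, 02 and 03, against 2084, 1224 and 2351 in CD44-negative arrays. The sum was lowest on array 02 in both sorts, and it was higher in the CD44-positive array of all 3 pairs, the opposite direction from SLITRK6. Most of it was COL3A1. Among the tested markers 3 were higher and 3 lower in CD44-positive cells, with a median difference of 0.0078. Only 1 of these 6 was lowest on array 02 in both sorts, so the sum does not speak for the other markers. Of the 6 markers above the limit COL3A1 alone passed the number test (adjusted p = 0.00406), at 11.63, 10.02 and 11.60 in CD44-positive arrays, against 10.61, 9.45 and 10.85 in CD44-negative arrays, while LUM, PDGFRA, FAP and POSTN were dim. In sorted bulk samples fewer cells of a kind and less RNA per cell cannot be told apart. Sums of endothelial markers lay between 535 and 601 in CD44-positive arrays, against 574 to 598 in CD44-negative arrays, of leukocyte markers between 303 and 308, against 299 to 333, and of glial markers between 193 and 214, against 204 to 220. The part of these markers in the SLITRK6, SLIT2, SLITRK5 and ROBO1 values was not tested. The difference between 3′ and 5′ probe sets of GAPDH lay between -0.12 and -0.055 in CD44-positive arrays, against -0.080 to -0.060 in CD44-negative arrays. For ACTB it was -0.038, -0.069 and 0.14 in CD44-positive arrays 01, 02 and 03, against 0.017, 0.0016 and 0.083 in CD44-negative arrays, highest in both sorts on array 03, where SLITRK6 was also highest. The part of this in the SLITRK6 values was not tested.

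**Figure D3:**
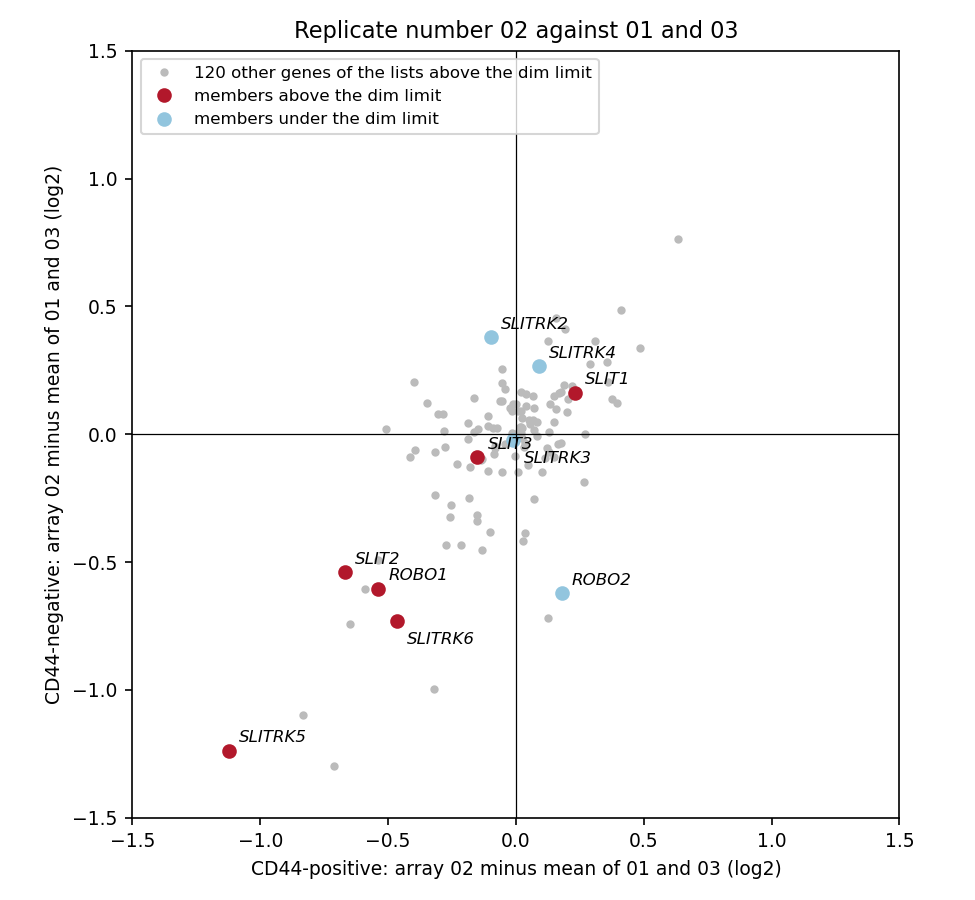
Array 02 minus the mean of arrays 01 and 03 on the log2 scale, in the CD44-positive cells (horizontal axis) and the CD44-negative cells (vertical axis). Red points are the 6 members above the dim limit, blue points the 4 dim members, and grey points the other genes above the limit from the guidance and marker lists. SLITRK5 lies farthest to the lower left of the members, at -1.12 and -1.24, and SLIT1 and SLIT3 lie near the centre.

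The patterns most like each member were then read over the 6 arrays, by Pearson r among all tested genes and as a description. Closest to SLITRK6 were LAMA4-AS1 (r = 0.99), TNFRSF14, METTL22 and ANAPC4 (0.98 each) and LINC00668 (0.98), whose differences between the sorts were small, from -0.25 to -0.089. The gene most opposed to SLITRK6 was CMPK2, which encodes an interferon-induced kinase of mitochondrial nucleotides, with r = -0.996. It stood at 6.39, 6.58 and 5.52 in CD44-positive arrays, against 4.61, 5.32 and 4.55 in CD44-negative arrays, high where SLITRK6 was low on each array. MSX1, a homeobox factor, and SETD7, a lysine methyltransferase, came next with -0.99 each.

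The genes closest to the other members were read in the same way, and their likeness to those members is what chose them. For SLITRK5 they were TET2, a DNA demethylase (r = 0.998), CORO1B, a coronin that acts on actin (0.996), and PKP2, a desmosome protein (0.995). For ROBO1 they were HPS1 (0.998), CTSF and LTA4H (0.997 each), and for SLIT2 HNRNPF (0.99), TOB2 (0.99) and RELA, the p65 subunit of NF-kappaB (0.985). SLIT1 was followed most closely by SNX30, H2AZ2 and TBC1D30 (0.99 each), and SLIT3 by PPP1R36 (0.997), TP53AIP1 and ZNF628 (0.98 each). With 6 arrays compared over 13842 genes, these values only rank the genes.

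SLITRK6 lies on chromosome 13 with SLITRK1 and SLITRK5, in a stretch poor in genes. Gene order was taken from RefSeq, and the 5 nearest genes with a probe set on each side were read. Of these 10 neighbours only NDFIP2, SPRY2 and SLITRK5 lay above the dim limit. NDFIP2, an adaptor of NEDD4-type ubiquitin ligases, differed by -0.19 (95% interval -0.51 to 0.13) and was lower in 3 of 3 pairs. SPRY2, an inhibitor of receptor kinase signalling, read 5.41, 5.49 and 5.27 in CD44-positive arrays, against 6.78, 4.39 and 6.56 in CD44-negative arrays. Its pairs differed by -1.36, 1.09 and -1.29, so pair 02 ran against the other pairs, and the fit gave -0.52 (interval -1.78 to 0.74, adjusted p = 1.00). SLITRK1, the nearest on the lower side, was dim at 3.00 against 2.82, and the remaining 6 neighbours, also dim, differed by -0.10 to 0.10.

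**Figure D4:**
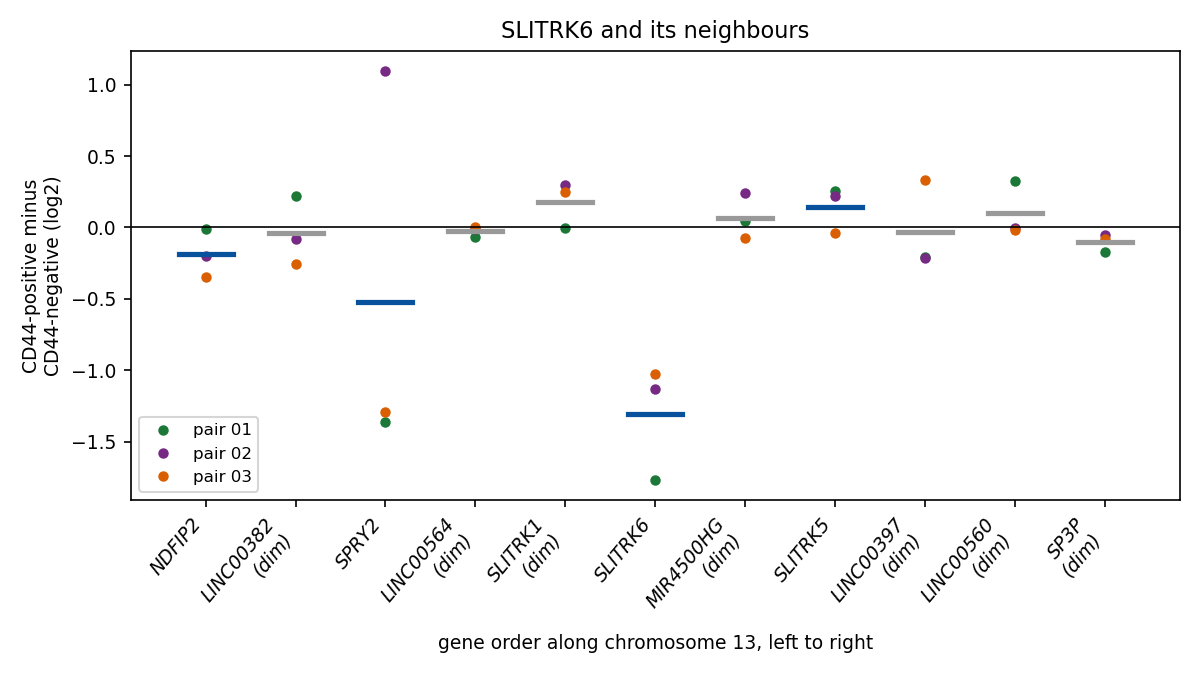
Difference between CD44-positive and CD44-negative arrays on the log2 scale for SLITRK6 and its 5 nearest neighbours with a probe set on each side, in gene order along chromosome 13. Bars are means, blue above and grey under the dim limit, and dots are the 3 pairs of same-numbered arrays. SLITRK6 is the gene whose 3 pairs all lie under -1, and the pairs of SPRY2 lie on both sides of 0.

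The remaining genes of the SLIT and SLITRK systems were read from lists of fixed members. ROBO3, a receptor best known from commissural axons, read 7.91, 7.74 and 8.65 in CD44-positive arrays, against 8.19, 7.84 and 8.48 in CD44-negative arrays, a difference of -0.068 (interval -0.64 to 0.51). It passed the number test (adjusted p = 0.0217), lowest on array 02 in both sorts. ROBO4, the endothelial member, differed by -0.10 (interval -0.30 to 0.10).

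Of 20 binding partners and relatives of the SLITRK proteins, 14 were tested, 5 higher and 9 lower, with a median of -0.054. By limma none passed in either direction, with or without the block, and 0 and 2 had an unadjusted p under 0.05 without and with it. Over all genes that share was 1.97% without the block. It was not counted with the block, so the count of 2 cannot be read as an excess. The phosphatases that bind SLITRKs were all above the limit. PTPRD differed by -0.18, PTPRS by -0.11 and PTPRF by -0.029. LINGO2 and LINGO1, leucine-rich repeat proteins of neurons, had the largest differences, -0.43 (interval -1.29 to 0.42) and 0.24 (-0.27 to 0.74). Both passed the number test (adjusted p = 0.0273 and 0.0206), and both were lower on array 02 than on 01 and 03 in each sort. They were 2 of 14 tested genes (14.3%), beside 10.3% of all genes.

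Of 32 genes that act downstream of ROBO receptors or regulate the SLIT signal, 27 were tested, 16 higher and 11 lower, with a median of 0.039. By limma none passed in either direction, and 1 had an unadjusted p under 0.05 in the unblocked fit and 3 in the blocked one. The share over all genes was 1.97% in the unblocked fit. It was not counted in the blocked one, so the count of 3 cannot be read as an excess. CAP2, an actin regulator, read 6.94, 6.40 and 6.497 in CD44-positive arrays, against 6.31, 5.24 and 6.16 in CD44-negative arrays, without overlap, a difference of 0.71 (interval 0.078 to 1.35, adjusted p = 1.00, with the block 0.213). Without overlap 2 of the 27 tested genes were higher, CAP2 among them, and 1 was lower. Over all probe sets 6.73% did not overlap, in either direction. SDC1, a heparan sulfate proteoglycan, differed by 0.31 (interval -0.12 to 0.73). In this list 2 of 27 tested genes (7.41%) passed the number test, beside 10.3% of all genes. ABL1, a tyrosine kinase, was highest on array 02 in both sorts (adjusted p = 0.04998), the opposite side from SLIT2 and ROBO1, and CDC42, a small GTPase, was lowest on array 03 in both (adjusted p = 0.0354).

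The other guidance families passed the sort comparison in no member by limma, with or without the block. In the unblocked fit 1 netrin, 2 semaphorin and 0 ephrin family genes had an unadjusted p under 0.05. In the blocked fit these counts were 1, 5 and 0. Over all genes the share was 1.97% in the unblocked fit. It was not counted in the blocked fit, so the blocked counts cannot be read as an excess. Of the netrin, DCC and UNC5 genes, 10 of 16 were tested, 3 higher and 7 lower, with a median of -0.044. DSCAM, a netrin receptor of the immunoglobulin family, differed by 0.28 (interval 0.042 to 0.52, adjusted p = 1.00) without overlap, RGMB, a co-receptor for bone morphogenetic proteins, differed by -0.15, and the netrin receptor DCC was dim. Without overlap 2 of the 10 tested genes were higher, DSCAM among them, and 0 lower, beside 6.73% of all probe sets in either direction. Of 31 semaphorins, plexins and neuropilins, 26 were tested, 14 higher and 12 lower, with a median of 0.0021. SEMA3A, a secreted repellent, differed by -0.35 (interval -0.70 to -0.0064) and SEMA4F by 0.28. Of 22 ephrins and Eph receptors, 13 were tested, 6 higher and 7 lower, with a median of -0.00098, and EFNB2 and EFNA4 stood at 0.23 and -0.20. The number test passed SEMA3C, SEMA6D and PLXNA3 in the second of these families and EFNA5 in the third, 3 of 26 and 1 of 13, beside 10.3% of all genes.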

How the data were processed

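Total RNA of sorted COLO-320DM cells was measured on 6 Affymetrix arrays, per the labels' protocols. The deposited values are linear intensity values made by the authors with RMA (which corrects background, equalises array distributions and summarises each probe set), per the submitters' processing notes, with version and build not given in the sources used here. RMA can compress differences near background. The planned tests assumed values already on the log2 scale, so log2 was taken, with no pseudocount. The table held 54675 probe sets, 62 of them controls, and the platform annotation named 1 gene for 41091, several for 1801 and none for 11721. Symbols were updated through RefSeq gene IDs (41037 matched).

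Groups were compared with limma 3.58.1 in R 4.3.3 (lmFit, eBayes, Benjamini-Hochberg adjustment, threshold 0.05), without a block and, as an alternative, with the replicate number as a block. Deviations from the group means correlated at 0.465, 0.689 and 0.626 between same-numbered arrays and at -0.496 to -0.107 between arrays of unlike number. Deviations cancel within each sort, so the like and unlike values are not independent. Same-numbered arrays were treated as pairs, a pairing read from the data and not from the labels. The number test was limma's moderated F test in the blocked fit. Single values had an exact permutation test. Lists had no set test. The fits were tested on simulated data in which the noise of same-numbered arrays was unrelated, unlike these arrays. Of added log2 shifts of 0.5, 1 and 2, the unblocked fit recovered 43.3%, 82.1% and 97%. The blocked fit recovered 0%, 67.2% and 92.4%, and the number test 0%, 25.4% and 89.4%. False calls numbered 7, 4 and 0. These rates may not hold where same-numbered arrays are alike. Python 3.11.15, pandas 2.3.3, numpy 2.4.6 and matplotlib 3.10.9 made tables and figures. Median intensity was 44.9 to 46.5 per array, correlations between arrays 0.991 to 0.997, and the number of arrays limits the precision.

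The members and lists were chosen with earlier results of these data known. Named were all members, CD44 and KIT, neighbours, the genes most like each member, and in each list those past the threshold or else the 2 with the largest difference. KIT stood at 9.60 against 8.93 (difference 0.67, 95% interval 0.012 to 1.33, limma adjusted p = 1.00, with the block 0.442), with overlapping sorts, and pair 03 differed by -0.010. Leaving out CD44-positive array 03 moved KIT to 1.05 (adjusted p = 0.154), and leaving out pair 03 in the blocked fit moved it to 1.01 (adjusted p = 0.00177). PTPRD, PTPRS, PTPRF, and genes named for the number test were chosen after their values were seen.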

Additional observations from a re-analysis of the deposited data

How the results depend on the processing

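SLITRK6 was lower in the CD44-positive cells in all 26 alternatives, by -1.62 to -1.08. It passed in 10 of the 12 fits with the replicate block and in none without it. These alternatives refit the same arrays on which the family was selected, so for SLITRK6 they are a description and carry no test. The differences of the other tested members carried no call in any alternative. With array weights SLITRK5 turned to -0.26, SLIT2 to -0.14, SLIT3 to -0.0046 and ROBO1 to -0.11. With single arrays or pairs left out SLITRK5 ran from -0.27 (without CD44-negative array 02) to 0.52, SLIT2 from -0.047 to 0.36, SLIT3 from -0.056 to 0.17 (-0.055 with the block and without pair 03, and 0.14 without CD44-positive array 01) and ROBO1 from -0.11 to 0.27. Genes called between the sorts numbered 0 as planned, 2 with no filter on dim genes, 1 with array weights and 1 when probe sets with an _s_at or _x_at suffix were dropped. They numbered 8 with the block alone and, with the block, 18 with median centring, 4 with quantile normalization, 5 with no filter, 16 at the 50th percentile, 6 with the mean of probe sets, 20 without those suffixes, 43 with array weights and 78 with a variance trend and robust moderation. Leaving out single arrays gave 0 to 1, and leaving out pairs 01, 02 and 03 with the block gave 10, 63 and 127. Probe sets called numbered 5 as planned, 1 without those suffixes and 0 with a variance trend and robust moderation. With the block they numbered 28, and 38 with median centring, 26 with quantile normalization, 19 without the suffixes, 33 with array weights and 165 with a variance trend and robust moderation. Leaving out single arrays gave 0 to 10, and leaving out pairs with the block 25, 87 and 85. Genes past the number test went from 1430 to 745 with no filter, 932 without the suffixes and 3149 with a variance trend and robust moderation, and to between 733 (without CD44-negative array 02) and 2236 (without CD44-negative array 03). In that test SLITRK5 passed in 14 of 14 alternatives. ROBO1 did not pass without CD44-negative array 02 (adjusted p = 0.0756), nor SLIT2 without CD44-positive array 02 (0.0807). CD44 passed in 12 of 12 blocked fits. The guidance lists held 0 called genes except for 1, CAP2, with the block and without pair 03, a range of 0 to 1; recomputing them, CD44, KIT, the SLITRK6 probe sets and the members' number tests under the alternatives was chosen after seeing the data. The cause of these changes was not tested.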

Other observations

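Of 12 neuroendocrine and neuronal markers, 11 had a probe set and 6 were tested, 5 higher and 1 lower in CD44-positive cells, with a median of 0.13. By limma none passed, with 0 at an unadjusted p under 0.05 in the unblocked fit and 3 in the blocked one. The share over all genes in the blocked fit was not counted, so the count of 3 cannot be read as an excess. CHGA, CHGB, INSM1, STMN2 and ELAVL4 were dim. The summed intensity of the 11 markers was 3168, 3142 and 2872 in CD44-positive arrays 01, 02 and 03, against 2884, 3104 and 3127 in CD44-negative arrays. The sorts overlapped in this sum. The part of these markers in the SLITRK6 values was not tested. ENO2 and GAP43 passed the number test, 2 of 6 tested markers (33.3%), beside 10.3% of all genes.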
